A study of Mus musculus with 88 samples.

Results

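Polycomb Repressive Complex 2 (PRC2) is the enzyme complex that methylates lysine 27 of histone H3 (H3K27), and the genes described here encode its subunits: the methyltransferases Ezh1 and Ezh2, the core subunits Eed, Suz12, and Rbbp4, the PRC2.1 accessory subunits Mtf2, Phf1, and Phf19, and the PRC2.2 accessory subunits Jarid2 and Aebp2. These 10 genes were taken by name, whatever their values. They were 10 of 53697 genes listed in the mesoderm table, 10 of 54393 in the endoderm table, 10 of 26007 in the bulk embryoid body (EB) table, and 10 of 15830 in the single-cell table. Every one of the 10 passed the filter on low values in each bulk comparison.

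All samples were mouse embryonic stem cells (ESCs) kept in serum with LIF, or cells differentiated from them. In the directed series, E14 wild-type (WT), Mtf2 null, and Jarid2 null monolayers were taken undifferentiated and at 5, 24, and 48 h towards mesoderm or endoderm, with 2 libraries per genotype, time, and direction. The single-cell series held EBs labelled E14 at days 0, 4, 7, and 10 for WT cells and for the nulls of Mtf2, Jarid2, and Eed, with 1 library for each genotype and day and 202 to 347 cells kept per library. The bulk EB series held each null label beside a WT line of its own at days 0, 2, 4, and 7: Mtf2 null beside Pcl1-3 WT, Jarid2 null beside JM8, and Eed null beside J1, with 1 sample for each line and day. The Mtf2 null cells carry a gene trap (Mtf2 GT/GT), whereas the Jarid2 null and Eed null cells are knockouts (-/-). Each genotype was represented by 1 line per experiment, so a difference between genotypes and a difference between lines cannot be told apart. The study calls its bulk duplicates technical, so the p-values measure the spread between libraries, not between cultures.

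PRC2 places mono-, di-, and trimethyl marks on H3K27, and the trimethyl form is found at silent developmental genes, many of which also carry the active H3K4me3 mark in ESCs. Eed reads the mark that Ezh2 or Ezh1 writes, Suz12 is the scaffold to which accessory subunits bind, and Rbbp4 binds histones. Mtf2, Phf1, and Phf19 are the alternative Polycomb-like subunits of PRC2.1, and Mtf2 binds unmethylated CpG-rich DNA, while Jarid2 and Aebp2 occur together in PRC2.2.

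Since Mtf2 binds CpG-rich DNA, the upstream sequences are shown for 3 members on which the comparisons described next turn: Mtf2 and Eed, which fell together as WT cells differentiated, and Phf19, which rose most in undifferentiated Mtf2 null cells. The sequences are from RefSeq on GRCm38.p6, written 5′ to 3′ on the strand of the gene, and capitals mark CpG dinucleotides. They end at the gene's start and lie at chr7:89980984-89981226 on the minus strand for Eed, chr5:108065424-108065673 on the plus strand for Mtf2, and chr2:34914027-34914226 on the minus strand for Phf19.
Eed: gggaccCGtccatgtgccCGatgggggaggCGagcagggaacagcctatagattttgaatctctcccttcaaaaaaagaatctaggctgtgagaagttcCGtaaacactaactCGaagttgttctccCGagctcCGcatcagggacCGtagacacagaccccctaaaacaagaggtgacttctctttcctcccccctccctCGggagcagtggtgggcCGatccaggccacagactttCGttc
Mtf2: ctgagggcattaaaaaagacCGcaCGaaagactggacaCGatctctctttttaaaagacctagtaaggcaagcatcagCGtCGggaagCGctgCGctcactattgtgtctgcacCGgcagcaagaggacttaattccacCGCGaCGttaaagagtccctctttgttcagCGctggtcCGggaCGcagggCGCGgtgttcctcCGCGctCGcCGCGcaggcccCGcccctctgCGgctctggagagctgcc
Phf19: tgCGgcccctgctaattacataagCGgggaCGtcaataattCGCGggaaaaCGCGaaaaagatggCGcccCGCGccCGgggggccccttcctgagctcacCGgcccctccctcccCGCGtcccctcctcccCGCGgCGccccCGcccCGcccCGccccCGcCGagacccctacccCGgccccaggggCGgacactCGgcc
These stretches held 11 CpGs in 243 bases for Eed, 23 in 250 bases for Mtf2, and 25 in 200 bases for Phf19. In the RefSeq windows of 300 bases around each start (250 before and 50 after), Eed had 17 CpGs, Mtf2 had 30, and Phf19 had 38, against a median of 7 over 32851 mouse promoters. As many CpGs or more were found in 31.4% of all promoters for Eed, 11.7% for Mtf2, and 4.95% for Phf19. All 10 members matched the table, with 14 start windows. Suz12 (41 CpGs) and Rbbp4 (39 CpGs) had the most, and 2 of the 3 Aebp2 starts had the fewest after a second Mtf2 start, with 4 each. One of 4 spellings of an E2F site (TTTCCCGC, TTTCGCGC, TTTGCCGC, or TTTGGCGC, searched on both strands) was present in 3 windows, those of Ezh2, Phf19, and Suz12, compared with 2.26% of all promoters.

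Depth and labels were examined over the whole series first. The directed libraries held 9111880 to 16898264 estimated counts, the bulk EB samples 4071242 to 30457254 reads, and the 4949 kept single cells 1143 to 105019 unique molecular identifiers (UMIs) with a median of 6650. Undifferentiated libraries with the same number in the mesoderm and endoderm series differed by 1.95 to 2.94 times counting noise, against 3.35 to 5.98 times between numbers 1 and 2 within a series, so they were closer to each other than duplicates were. In the WT libraries at 48 h towards endoderm, all 4 endoderm markers (Foxa2, Sox17, Cxcr4, and Gsc) were under 1 CPM (counts scaled to the library total) and summed to 0.866 to 0.942 CPM, whereas the 6 pluripotency markers still summed to 1165 to 1253 CPM. Towards mesoderm at 48 h, the 5 mesoderm markers (Hand1, Gata4, Pdgfra, Kdr, and Tbx20) summed to 22.2 to 25.4 CPM in WT, against 11.8 to 12.7 CPM undifferentiated. The pluripotency markers there summed to 1500 to 1532 CPM. The labels endoderm and mesoderm are therefore used here for the direction of the protocol only. In bulk samples, fewer cells of a type and less RNA per cell cannot be told apart.

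The targeted genes were checked in every library. Mtf2, which brings PRC2.1 to CpG islands, held 30.2 to 38.2 CPM in the 16 directed Mtf2 null libraries, against 206 to 509 CPM in the 16 WT libraries. Jarid2, which recruits PRC2.2, was much less reduced in the libraries labelled Jarid2 null: the 4 undifferentiated libraries held 326, 308, 329, and 297 CPM, against 473, 362, 467, and 352 CPM in WT. At 48 h towards mesoderm the libraries labelled Jarid2 null held 397 and 448 CPM of Jarid2, the lower between the WT libraries at 407 and 388 CPM and the higher above both. Counts were summed over the whole gene, so transcripts that lack only a deleted part would still be counted. In single cells the targeted genes were lower in every null library than in WT of the same day: Mtf2 was at 0.0709 to 0.16 of WT, Jarid2 at 0.245 to 0.638, and Eed at 0.00673 to 0.0324. In bulk EBs this held for 1 of the 3 labels. Mtf2 under the Mtf2 null label was at 316, 237, 231, and 164 CPM on days 0, 2, 4, and 7, below Pcl1-3 WT on each day (415, 442, 324, and 383 CPM), although the library labelled Jarid2 null had less Mtf2 at day 0 (127 CPM). Jarid2 under the Jarid2 null label (593, 662, 251, and 221 CPM) was above JM8 at days 0 and 2 and below it at days 4 and 7 (503, 642, 277, and 329 CPM). Eed in the libraries labelled Eed null (111, 206, 107, and 58.2 CPM at days 0, 2, 4, and 7) lay beside J1 (106, 246, 79.0, and 52.4 CPM). No direction in bulk EBs is therefore assigned to a lost subunit.

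**Figure D1:**
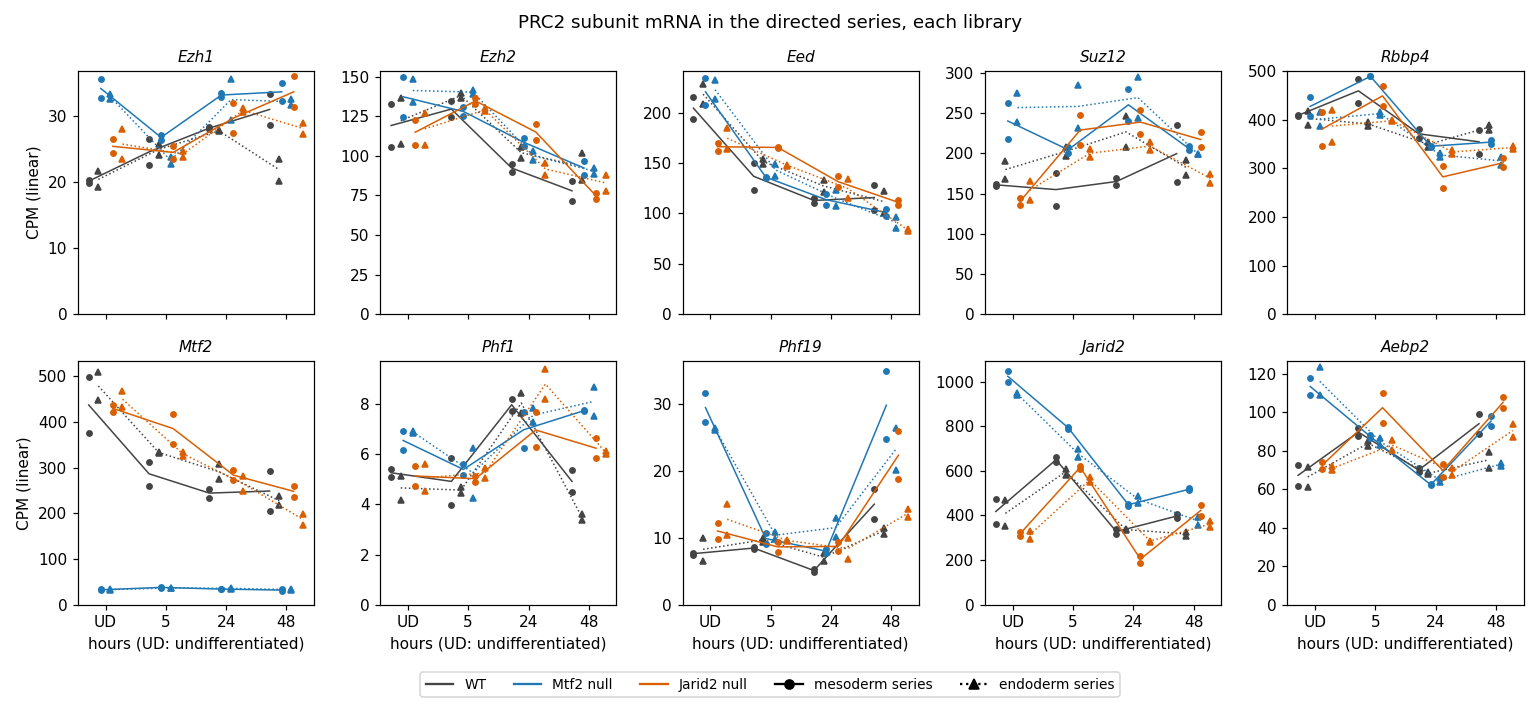
Level of each of the 10 PRC2 subunit genes in CPM (vertical axes, each from its own scale) against hours of differentiation, with 1 point per library, circles with solid lines for the mesoderm series, triangles with dotted lines for the endoderm series, lines through the means of 2 libraries, and WT in grey, Mtf2 null in blue, and Jarid2 null in orange. Eed and Mtf2 went down with time in WT, and Jarid2 and Phf19 started highest in Mtf2 null cells.

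Levels of different genes were compared per kilobase of exon, with the length counted over all annotated exons of the gene. This is not the length of a transcript and can exceed it by a different amount for each gene. The order of genes is therefore approximate. On this scale the undifferentiated WT mesoderm libraries had most Mtf2 (76.7 CPM per kb), followed by Eed (53.4), Rbbp4 (46.7), and Jarid2 (43.02). Lower were Suz12 (32.5), Ezh2 (17.8), Aebp2 (6.83), Ezh1 (2.71), Phf19 (1.52), and Phf1 (1.51). In the same libraries and on this scale, Mtf2 exceeded its alternatives Phf1 and Phf19 by far, and the ratio of Ezh2 to Ezh1 was 6.59. The size of such a ratio depends on the lengths used. Its relative change between libraries does not, since the lengths are the same in each. The 3 members under 5 CPM per kb, Ezh1, Phf19, and Phf1, are those whose levels rest on the fewest counts.

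In the directed series, undifferentiated Mtf2 null cells had higher RNA levels of several other PRC2 subunits. The day 0 bulk EB sample under this label, described below, was above its WT line for Phf19 and Jarid2. It was below that line for Aebp2, Ezh1, and Suz12. Of the 10 members, 6 passed an adjusted p under 0.001 in edgeR's quasi-likelihood test of 4 Mtf2 null against 4 WT libraries: Mtf2 itself fell, and Phf19, Jarid2, Aebp2, Ezh1, and Suz12 rose. In this comparison 30.6% of the 16655 genes tested passed, and 9884 had an unadjusted edgeR p under 0.05. The share of all genes whose libraries do not overlap between genotypes was not counted, so non-overlap below only describes each gene. Mtf2 is the targeted gene in every Mtf2 null comparison, so its own call in these counts says nothing about the other members. The median change over the members was 0.50 on the log2 scale, and over all genes tested it was -0.04. When an absolute log2 fold change above 1 was also required, 3 members (Mtf2, Phf19, and Jarid2) remained, compared with 14.7% of all genes. Because same-numbered libraries of both series were unusually close, they were also summed to 2 samples per genotype, which left 5 members called, all but Suz12 (adjusted p = 0.011). Whether same-numbered libraries share RNA is not known. For undifferentiated cells, the p-values, SEs, and non-overlap below treat the 4 libraries of a genotype as independent. They would be overstated if RNA was shared.

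Phf19 is a Polycomb-like subunit that takes the place of Mtf2 in PRC2.1. It was at 7.78, 7.50, 10.0, and 6.56 CPM in the 4 undifferentiated WT libraries and at 31.7, 27.4, 26.4, and 26.2 CPM in the Mtf2 null libraries. Every Mtf2 null library was above every WT library, a 3.52-fold difference (log2 fold change 1.82, SE 0.30, edgeR adjusted p = 4.0e-08). Libraries labelled Jarid2 null lay between, at 12.2, 9.88, 15.1, and 10.5 CPM, with the lowest of them under the highest WT library (log2 fold change 0.56, edgeR adjusted p = 0.013, not past the threshold). Phf1, the third Polycomb-like subunit, was at 5.42, 5.11, 4.17, and 5.15 CPM in WT and at 6.16, 6.95, 6.94, and 6.86 CPM in Mtf2 null libraries, which did not overlap but missed the threshold (log2 fold change 0.44, SE 0.17, edgeR adjusted p = 0.020).

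Jarid2 was at 473, 362, 467, and 352 CPM in undifferentiated WT and at 1048, 999.6, 939, and 949 CPM in Mtf2 null libraries. The groups were far apart, and the difference was 2.40-fold (log2 fold change 1.26, SE 0.21, edgeR adjusted p = 4.2e-08). Aebp2, the DNA-binding zinc finger partner of Jarid2, was at 72.8, 61.7, 71.6, and 61.2 CPM in WT and at 118, 109, 123, and 109 CPM in Mtf2 null libraries, again without overlap (log2 fold change 0.79, SE 0.14, edgeR adjusted p = 4.5e-07). In the 2 mesoderm libraries of each genotype alone, the Aebp2 difference was 0.76 and missed the threshold (adjusted p = 0.0013).

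Among the catalytic and core subunits, Ezh1 was at 19.9, 20.4, 21.6, and 19.2 CPM in undifferentiated WT and at 35.7, 32.7, 32.5, and 33.3 CPM in Mtf2 null libraries (log2 fold change 0.73, SE 0.14, edgeR adjusted p = 1.2e-06). Suz12 was at 162, 159, 191, and 169 CPM in WT and at 263, 217, 275, and 238 CPM in Mtf2 null libraries (log2 fold change 0.55, SE 0.13, edgeR adjusted p = 5.0e-05). For both genes the groups did not overlap, although with the 2 libraries of either series alone neither passed, at adjusted p = 0.0018 and 0.0011 for Ezh1 and 0.013 in both series for Suz12. Ezh2, the main methyltransferase of dividing cells, was at 133, 105, 137, and 107 CPM in WT and 150, 125, 149, and 134 CPM in Mtf2 null libraries, which overlapped (log2 fold change 0.22, SE 0.10, edgeR adjusted p = 0.064). Eed and Rbbp4 differed by 0.07 (SE 0.09) and 0.04 (SE 0.09) and did not pass. Per kilobase, the ratio of Ezh2 to Ezh1 was 4.48 and 4.78 in the undifferentiated Mtf2 null cells of the 2 series, compared with 6.59 and 6.67 in WT.

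**Figure D2:**
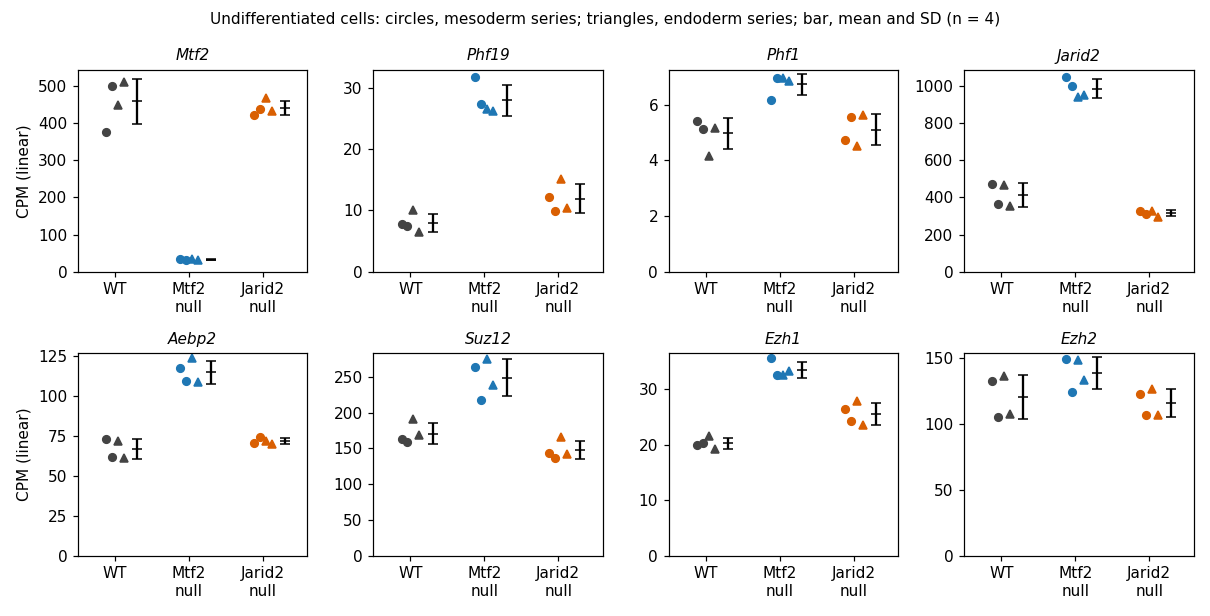
CPM of 8 subunit genes in the 4 undifferentiated libraries of each genotype (WT, Mtf2 null, and Jarid2 null on the horizontal axis, 2 libraries from each series), with the bar at the mean and the error bar showing the SD. Phf19, Phf1, Jarid2, Aebp2, Ezh1, and Suz12 were higher in all 4 Mtf2 null libraries than in any WT library, and Phf1 missed the threshold.

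Cell type markers moved in the same libraries. The 5 visceral endoderm markers (Gata6, Dab2, Sox7, Afp, and Ttr) summed to 72.4 to 79.9 CPM in the undifferentiated Mtf2 null libraries, against 9.63 to 13.5 CPM in WT and 9.43 to 9.87 CPM in libraries labelled Jarid2 null, and 2 of the 5 were under 1 CPM in the Mtf2 null libraries. The 5 mesoderm markers summed to 50.3 to 62.3 CPM in Mtf2 null and 11.8 to 13.4 CPM in WT libraries. Whether cells of these types were present, and whether they had a part in the subunit differences, was not tested. The 6 pluripotency markers summed to 2635 to 2804 CPM in Mtf2 null and 2123 to 2590 CPM in WT libraries.

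No member passed between the undifferentiated libraries labelled Jarid2 null and WT (0 of 10, against 3.91% of all genes, edgeR). At an unadjusted edgeR p under 0.05 there were 5 of 10 members (Ezh1, Suz12, Phf19, Eed, and Jarid2), against 5533 of all 16655 genes. DESeq2 called 2 members. Eed was at 170, 162, 185, and 164 CPM in these libraries and at 194, 215, 208, and 228 CPM in WT, a difference of -0.34 on the log2 scale without overlap (SE 0.10, edgeR adjusted p = 0.011). Jarid2 differed by -0.41 (SE 0.12, edgeR adjusted p = 0.0073).

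During differentiation of WT cells, Eed and Mtf2 went down in both directions. Towards mesoderm, Eed was at 194 and 215 CPM in undifferentiated cells, 150 and 123 CPM at 5 h, 115 and 111 CPM at 24 h, and 128 and 103 CPM at 48 h. Towards endoderm it was at 208 and 228, then 154 and 149, 121 and 133, and 101 and 123 CPM. Both undifferentiated libraries were thus above all later ones in each series. The fall reached -0.86 (SE 0.17, edgeR adjusted p = 1.2e-05) at 24 h towards mesoderm and -0.97 (SE 0.18, edgeR adjusted p = 1.0e-06) at 48 h towards endoderm on the log2 scale. It held without any 1 library at 24 h in both series and at 48 h towards endoderm. At 48 h towards mesoderm (-0.82) it missed the threshold without WT replicate 2 of that time, at adjusted p = 0.0011.

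Mtf2 towards mesoderm was at 375 and 499 CPM in undifferentiated WT cells, 313 and 260 CPM at 5 h, 254 and 235 CPM at 24 h, and 292 and 206 CPM at 48 h. Towards endoderm it was at 448 and 509, then 334 and 332, 275 and 307, and 218 and 238 CPM. The fall was -0.81 (SE 0.20, edgeR adjusted p = 0.00028) at 48 h towards mesoderm and -1.07 (SE 0.18, edgeR adjusted p = 8.6e-08) towards endoderm. The endoderm value held without any 1 library, whereas towards mesoderm the call was lost without undifferentiated replicate 2 (adjusted p = 0.011) or 48 h replicate 2 (adjusted p = 0.013).

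Of the 10 members, 2 passed at 5 h, 2 at 24 h, and 6 at 48 h in the WT mesoderm series, against 12.2%, 15%, and 15.3% of all genes. At 48 h Eed, Mtf2, and Ezh2 fell, and Ezh1, Phf19, and Aebp2 rose. Ezh2 was at 133 and 105 CPM undifferentiated, 94.7 and 89.8 CPM at 24 h, and 71.6 and 84.1 CPM at 48 h (log2 fold change -0.61, SE 0.15, edgeR adjusted p = 0.00053). Ezh1 went the other way, from 19.9 and 20.4 to 33.3 and 28.7 CPM (0.62, SE 0.15, edgeR adjusted p = 0.00034). The ratio of Ezh2 to Ezh1 per kilobase accordingly went from 6.59 over 5.87 at 5 h and 3.65 at 24 h to 2.80 at 48 h. Phf19 rose from 7.78 and 7.50 to 12.8 and 17.3 CPM (0.97, SE 0.25, edgeR adjusted p = 0.00086) and Aebp2 from 72.8 and 61.7 to 99.2 and 89.0 CPM (0.49, SE 0.13, edgeR adjusted p = 0.00093). Each of these 4 calls was lost when any of 3 of the 4 libraries was left out, and without undifferentiated replicate 2 the 10 calls over the 3 times came down to 3, without 48 h replicate 2 to 5. At 5 h Jarid2 rose from 473 and 362 to 639 and 661 CPM (0.64, SE 0.15, edgeR adjusted p = 0.00036), and in the absence of undifferentiated replicate 2 or of either 5 h library its adjusted p was 0.0029 to 0.010.

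Towards endoderm, 1 member passed at 5 h, 2 at 24 h, and 2 at 48 h, namely Mtf2 at each time and Eed from 24 h, against 8.7%, 12.8%, and 14.6% of all genes. DESeq2 called 3 members at 5 h in each series. Ezh1 was at 21.6 and 19.2 CPM undifferentiated, 27.8 and 27.7 CPM at 24 h, and 23.6 and 20.2 CPM at 48 h, and the ratio of Ezh2 to Ezh1 was 6.67, 4.09, and 4.75 at these times. Jarid2 was highest at 5 h here as well, at 583 and 608.9 CPM, against 467 and 352 CPM undifferentiated and 327 and 307 CPM at 48 h (5 h difference 0.54, SE 0.14, edgeR adjusted p = 0.0010, just missing the threshold). Rbbp4 stayed between 260 and 489 CPM in all 48 directed libraries, and neither Rbbp4 nor Suz12 passed at any time in WT.

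**Figure D3:**
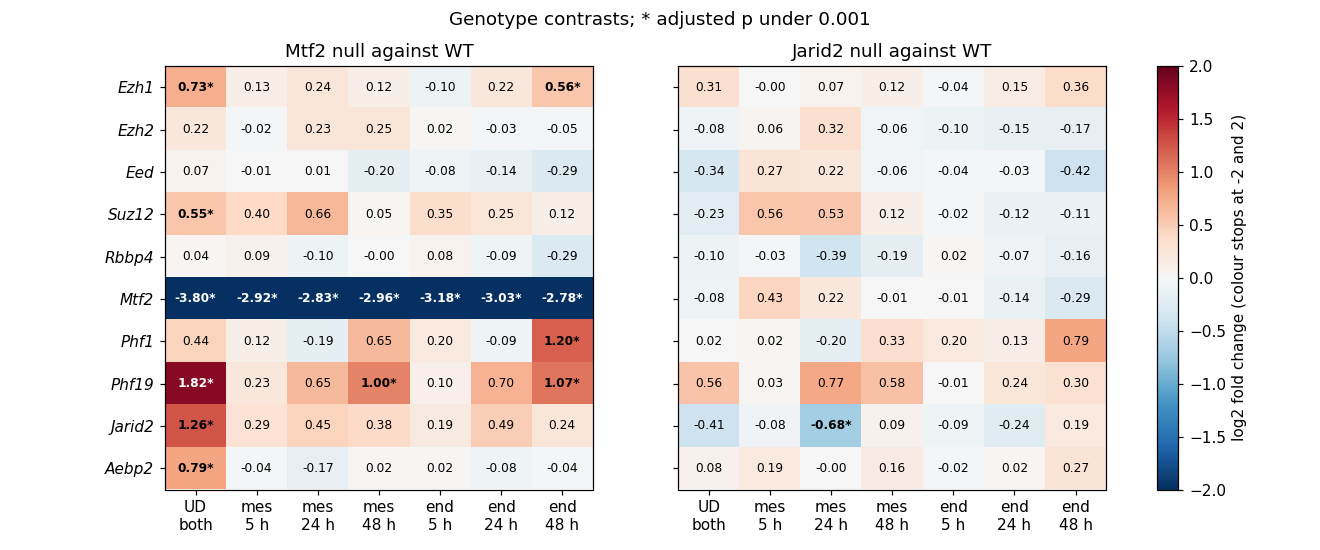
Log2 fold change of each subunit gene (rows) in Mtf2 null and in libraries labelled Jarid2 null against WT of the same time and series (columns), with colour from -2 to 2, the number in each cell, and a star where the edgeR adjusted p was under 0.001. Besides Mtf2 itself, the Mtf2 null stars were at undifferentiated cells and at 48 h.

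Later times were compared with 2 libraries against 2, and undifferentiated cells with 4 against 4 (2 against 2 in the mesoderm series alone left 3 of the 6 calls), so the counts are not compared between them. At 5 and 24 h only Mtf2 passed in edgeR in the mesoderm series (1 of 10 each, against 11.2% and 8.26% of all genes) and in the endoderm series (1 of 10 each, against 12.3% and 10.3%). DESeq2 called 3 members at 24 h towards mesoderm and 2 towards endoderm. Suz12 at 24 h towards mesoderm was 0.66 higher in Mtf2 null libraries on the log2 scale (SE 0.18, edgeR adjusted p = 0.0034, not past the threshold). At 48 h towards mesoderm 2 of 10 passed, against 10.3% of all genes: Mtf2 and Phf19. Phf19 was at 12.8 and 17.3 CPM in WT and at 24.8 and 34.9 CPM in Mtf2 null libraries (log2 fold change 1.00, SE 0.24, edgeR adjusted p = 0.00036). This call was lost without Mtf2 null replicate 2 (adjusted p = 0.019) or WT replicate 1 (adjusted p = 0.014).

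At 48 h towards endoderm 4 of 10 members passed, against 17.5% of all genes, and 3 of 10 with an absolute log2 fold change above 1, against 10.5%. Both counts include the targeted gene Mtf2. Phf1 was at 3.64 and 3.39 CPM in WT, 8.68 and 7.54 CPM in Mtf2 null, and 6.13 and 6.01 CPM in libraries labelled Jarid2 null. The Mtf2 null difference for Phf1 was 2.30-fold (log2 fold change 1.20, SE 0.26, edgeR adjusted p = 4.7e-05), and in the libraries labelled Jarid2 null it was 0.79 (SE 0.23, edgeR adjusted p = 0.021). Phf19 was at 11.5 and 10.6 CPM in WT and at 20.2 and 26.4 CPM in Mtf2 null libraries (1.07, SE 0.25, edgeR adjusted p = 0.00020), and Ezh1 at 23.6 and 20.2 CPM in WT and at 32.6 and 31.7 CPM in Mtf2 null libraries (0.56, SE 0.14, edgeR adjusted p = 0.00063). All 3 of these calls were lost without WT replicate 2, at adjusted p of 0.0014 for Phf1, 0.0049 for Phf19, and 0.023 for Ezh1, and over the endoderm genotype comparisons 3 of 6 calls were left without it. Phf1 was also lost without Mtf2 null replicate 1 (adjusted p = 0.0011), Phf19 without Mtf2 null replicate 2 (0.0075) or WT replicate 1 (0.0015), and Ezh1 without Mtf2 null replicate 1 (0.0080) or 2 (0.0045). In a fit on the compared groups alone all 3 missed the threshold, at adjusted p of 0.0047, 0.0016, and 0.014.

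The marker lists again moved with genotype at 48 h. The visceral endoderm markers summed to 311 to 362 CPM in Mtf2 null libraries towards endoderm and 220 to 234 CPM towards mesoderm, against 7.91 to 8.92 and 11.7 to 12.1 CPM in WT, with 1 of the 5 under 1 CPM in Mtf2 null libraries. In libraries labelled Jarid2 null they summed to 7.72 to 8.23 CPM towards endoderm, where Phf1 was also above WT. Whether visceral endoderm cells were present, and whether they had a part in the Phf1, Phf19, and Ezh1 values, was not tested.

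Between libraries labelled Jarid2 null and WT, Jarid2 itself was the 1 member called, at 24 h towards mesoderm. It was at 189 and 220 CPM, below the WT libraries at 318 and 337 CPM (log2 fold change -0.68, SE 0.16, edgeR adjusted p = 0.00050, against 4.11% of all genes). The call was lost without null replicate 1 (adjusted p = 0.027), WT replicate 1 (0.0052), or WT replicate 2 (0.011). At 5 and 48 h towards mesoderm 0 of 10 members passed, against 0% and 0.256% of all genes, and none by DESeq2. An unadjusted edgeR p under 0.05 was found for 3 and 1 members, against 2672 and 2507 of all 18361 genes. Towards endoderm 0 of 10 passed at 5, 24, and 48 h, against 0.0467%, 0.0519%, and 0.234% of all genes, and none by DESeq2. There, 0, 1, and 5 members had an unadjusted edgeR p under 0.05, against 1465, 1739, and 4207 of all 19261 genes.

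The 48 h change was then compared between genotypes as an interaction. Towards endoderm 3 of 10 members passed, against 6.44% of all genes. Jarid2 had an interaction of -0.96 on the log2 scale, Mtf2 null against WT (SE 0.21, edgeR adjusted p = 0.00015). It went from 939 and 949 to 358 and 392 CPM in Mtf2 null libraries and from 467 and 352 to 327 and 307 CPM in WT. Aebp2 went from 123 and 109 to 72.3 and 73.7 CPM in Mtf2 null libraries and from 71.6 and 61.2 to 71.1 and 79.4 CPM in WT (interaction -0.85, SE 0.18, edgeR adjusted p = 0.00011). Both genes thus began apart and ended close together. Mtf2 had an interaction of 1.08 (SE 0.22, edgeR adjusted p = 4.1e-05), since it fell in WT and stayed at 31.1 to 35.04 CPM in Mtf2 null libraries. Without Mtf2 null 48 h replicate 1, Mtf2 alone passed, with adjusted p of 0.0019 for Jarid2 and 0.0011 for Aebp2. Aebp2 was also lost without undifferentiated Mtf2 null replicate 1 (adjusted p = 0.0015) or 48 h WT replicate 2 (adjusted p = 0.0013). When only the compared groups were used none of the 3 passed, at adjusted p of 0.0067 for Jarid2, 0.0069 for Aebp2, and 0.0024 for Mtf2.

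Towards mesoderm only Jarid2 passed this test (1 of 10, against 3.19% of all genes), with an interaction of -0.91 (SE 0.22, edgeR adjusted p = 0.00087). It went from 1048 and 999.6 to 512 and 522 CPM in Mtf2 null libraries and from 473 and 362 to 407 and 388 CPM in WT. The call was lost without any of 7 of the 8 libraries, the exception being undifferentiated WT replicate 1 (adjusted p of 0.0015 to 0.0066), with the replicate block (adjusted p = 0.0014), and when only the compared groups were used (adjusted p = 0.021). For libraries labelled Jarid2 null 0 of 10 members passed in either series, against 0.0545% of all genes towards mesoderm and 0.54% towards endoderm, and none by DESeq2. An unadjusted edgeR p under 0.05 was found for 1 and 2 members, against 2658 of 18361 and 3847 of 19261 genes.

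Other PRC2 genes were followed beside the members. Epop, a PRC2.1 subunit of pluripotent cells, was at 257 and 192 CPM in undifferentiated WT cells of the endoderm series and at 69.0 and 61.6 CPM at 48 h, a fall of -1.78 on the log2 scale. In Mtf2 null cells it was at 163 and 135 CPM at 48 h towards endoderm (1.19 above WT) and at 268 and 228 CPM towards mesoderm, where WT held 163 and 136 CPM (0.73 above WT). Both passed the edgeR threshold. Of the 5 other PRC2 genes, none passed in the undifferentiated Mtf2 null comparison (30.6% of all genes), 1 rose at 48 h towards mesoderm (10.3%), and 2 rose (Epop and Lcor, 0.66) and 1 fell (Lcorl, -0.77) at 48 h towards endoderm (17.5%). Rbbp7, the paralog of Rbbp4, rose by 0.52 and 0.56 at 24 h in WT towards mesoderm and endoderm, while Rbbp4 did not pass. Ezhip, an inhibitor of PRC2, was low, at 2.89, 3.11, 3.60, and 4.11 CPM in undifferentiated Mtf2 null and 1.28, 0.852, 0.947, and 1.87 CPM in WT libraries (log2 fold change 1.47, edgeR adjusted p = 0.0023, not past the threshold).

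Of 20 genes of PRC1, the complex that binds H3K27me3 and ubiquitinates histone H2A, 19 were tested in undifferentiated cells, where 6 rose and 2 fell in Mtf2 null cells, with Bcor changed most (1.22), against 30.6% of all genes passing. Their median change was 0.26 on the log2 scale. At 48 h towards endoderm 6 of 20 rose and none fell, with Cbx8 changed most (3.73), against 17.5% of all genes, and towards mesoderm none of 20 passed, against 10.3%. In WT cells 4 of 20 rose at 48 h in each direction, near the 15.3% and 14.6% of all genes, led by Bcor (2.76 towards mesoderm and 1.94 towards endoderm). Of the H3K27 demethylases, which remove the PRC2 mark, Kdm6a rose in undifferentiated Mtf2 null cells (0.60) and in WT at 48 h towards mesoderm (0.66) and endoderm (0.88). Of 12 cell division genes, 1 rose and 2 fell in undifferentiated Mtf2 null cells, with a median of 0.05, against 30.6% of all genes passing, while 3 fell in undifferentiated libraries labelled Jarid2 null, with a median of -0.18, against 3.91%.

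The genes whose pattern was most like those of Mtf2, Jarid2, and Ezh2 were sought across the directed libraries of the genotypes in which the member was not targeted. Across 16 libraries per series and 10752 genes, Mtf2 was most like Chek1 (Pearson r of 0.954 towards mesoderm and 0.951 towards endoderm) and Eed (0.944 and 0.975). For Jarid2, Naprt was among the genes most like it (0.949 and 0.926, of 10789 genes in 16 libraries). Ezh2 was most like Rpp25 (0.922 and 0.903) and Cntfr (0.865 and 0.878) among 10830 genes in 24 libraries. These correlations are descriptions, since libraries of 1 time and genotype are duplicates and all follow the same time course.

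In bulk EBs the WT lines were compared over days, with line as a block and an adjusted p under 0.05 in limma. The file's headers mark all day 0 samples as mono and all later ones as eb, so a change from day 0 cannot be told apart from that difference in culture. At day 2, 3 of 10 members passed, against 12.7% of all genes. Eed rose from 140 to 284 CPM in JM8, 106 to 246 CPM in J1, and 117 to 213 CPM in Pcl1-3 WT (log2 fold change 1.04, SE 0.21, limma adjusted p = 0.020). Ezh1 went from 110 to 56.2 CPM in JM8, 139 to 68.3 CPM in J1, and 137 to 60.3 CPM in Pcl1-3 WT (-1.04, SE 0.22, limma adjusted p = 0.021). All 3 lines moved the same way for both genes. Rbbp4 rose from 436.8 to 597, 380 to 507, and 385 to 536 CPM in the same lines (0.46, SE 0.12, limma adjusted p = 0.034).

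By day 7 Eed was at 85.9 CPM in JM8, 52.4 CPM in J1, and 120 CPM in Pcl1-3 WT, so that the day 2 rise was followed by lower values in each line. At day 7, 1 of 10 members passed, against 26.2% of all genes, namely Ezh1 (-0.77, SE 0.22, limma adjusted p = 0.032), at 81.1, 59.5, and 83.4 CPM. At day 4, 0 of 10 passed, against 15.8% of all genes, and none by edgeR on the recovered reads. At an unadjusted limma p under 0.05 there was 1 member, against 4743 of all 14566 genes. All 4 calls were lost without the line block or without JM8, whose removal gave adjusted p of 0.19 to 0.40, and without J1 there were 2. The calls of Rbbp4 at day 2 and of Ezh1 at day 7 were lost whichever of the 3 lines was left out. Epop rose at day 2 (1.76) as Eed did, from 122 to 257 CPM in JM8, 77.4 to 304 CPM in J1, and 103 to 470 CPM in Pcl1-3 WT.

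Between the bulk EB libraries labelled as mutants and their WT lines, with day as a block, 3 of 10 members passed for the Mtf2 null label (against 17.7% of all genes), 3 for the Jarid2 null label (14.7%), and 3 for the Eed null label (10.7%). Suz12 was at 247, 470, 451, and 304 CPM under the Mtf2 null label and at 755, 613.6, 833, and 807 CPM in Pcl1-3 WT on days 0, 2, 4, and 7 (log2 fold change -1.07, SE 0.20, limma adjusted p = 0.0033). Under the Jarid2 null label Suz12 was at 433, 293, 218, and 222 CPM, and in JM8 at 710, 691, 484, and 513 CPM (-1.08, SE 0.20, limma adjusted p = 0.0038). Suz12 was thus lower in the labelled library on every day in both pairs, and these calls held without any 1 day. Ezh1 was also lower under the Mtf2 null label (-0.68) and the Jarid2 null label (-0.65). In the day 0 (mono) samples, Ezh1 (88.9 against 137 CPM) and Aebp2 (104 against 137 CPM), like Suz12, were lower under the Mtf2 null label than in Pcl1-3 WT. Phf19 (25.9 against 12.5 CPM) and Jarid2 (602 against 425 CPM) were higher there. All of these genes were higher in the undifferentiated Mtf2 null cells of the directed series.

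Ezh2 was at 173, 190, 199, and 200.5 CPM under the Mtf2 null label and at 137, 135, 116, and 121 CPM in Pcl1-3 WT (0.58, SE 0.12, limma adjusted p = 0.0050). Under the Eed null label Ezh2 was at 196, 259, 199, and 195 CPM, and in J1 at 148, 183, 126, and 101 CPM (0.62, SE 0.12, limma adjusted p = 0.0068). It was higher than the WT line on every day in both. Aebp2 was higher under the Eed null label (0.61, limma adjusted p = 0.019), Jarid2 as well (0.70, limma adjusted p = 0.048), and Phf1 under the Jarid2 null label (1.02, limma adjusted p = 0.022). Each of these calls of Aebp2, Jarid2, and Phf1 was lost in 3 of the 4 fits that left 1 day out. Without day 4, 2 of the 9 calls were left, both Suz12, and without the day block none. Ezhip was also higher under the Eed null label than in J1 on every day, at 22.2, 5.83, 11.6, and 12.3 CPM, against 7.30, 1.54, 1.74, and 1.01 CPM in J1 (2.34, limma adjusted p = 0.0047), and the Mtf2 null label was close to it at days 4 (11.7 CPM) and 7 (10.8 CPM). Each pair compared 1 line with another, so line and genotype cannot be told apart.

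In single cells there was 1 library per genotype and day, so no test was run, neither at a single day nor over the days together, and the exact 95% Poisson intervals cover counting error only. In WT EBs Eed went from 478 CPM of UMIs at day 0 to 197, 157, and 115 at days 4, 7, and 10, a ratio of 0.241 between the last and the first day (interval 0.203 to 0.284). Mtf2 went from 793 to 442, 382, and 365 (0.46, 0.417 to 0.506) and Jarid2 from 594 to 275, 290, and 215 (0.361, 0.318 to 0.408). Rbbp4 (866, 597, 645, and 569) and Suz12 (304, 264, 219, and 218) went down less, and Ezh2 (192, 139, 199, and 132) and Aebp2 (116, 82.6, 121, and 108) went up and down. Ezh1 was highest at day 4 (29.8, 71.9, 31.5, and 37.2). Phf19 gave 47, 11, 4, and 4 UMIs on the 4 days and Phf1 2, 7, 15, and 12, too few for levels within clusters.

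**Figure D4:**
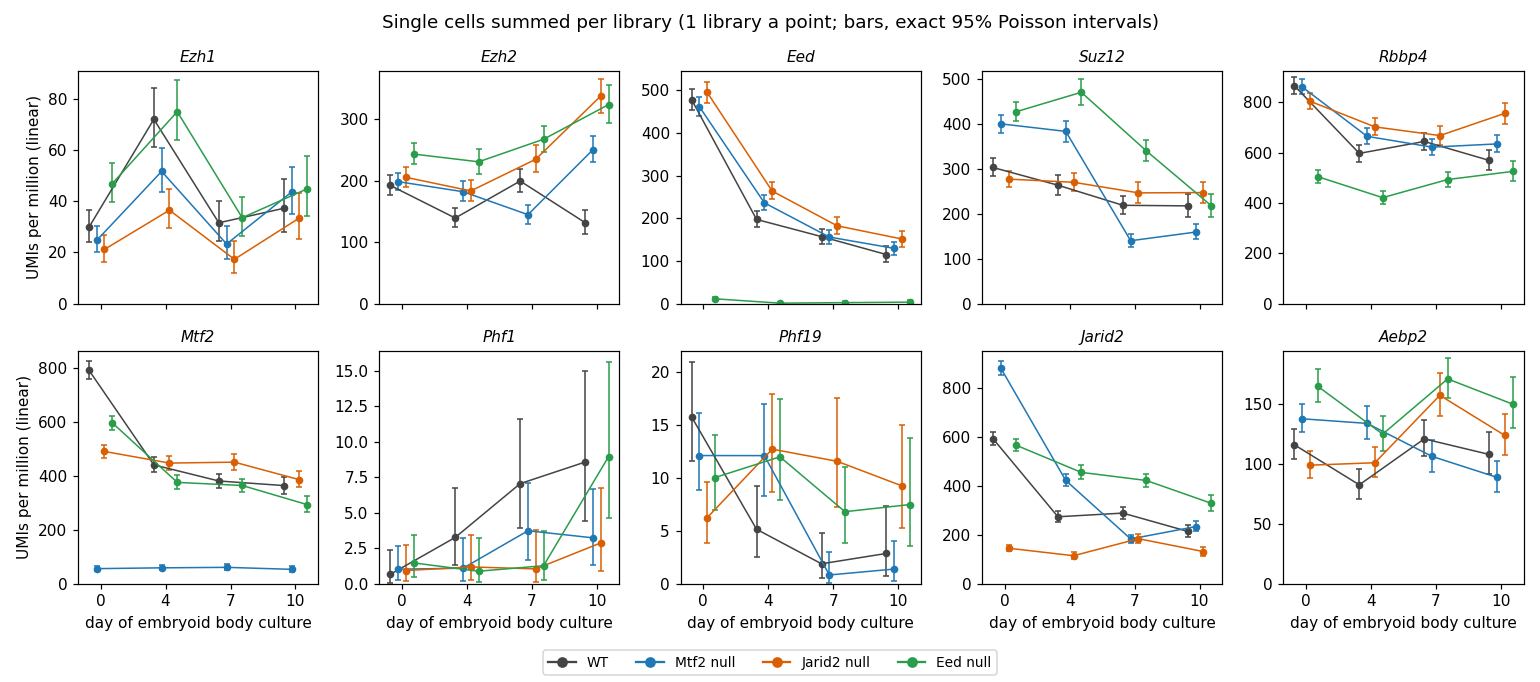
UMI CPM of the subunit genes (vertical axes) by day of EB differentiation (horizontal axis) in 1 library per genotype and day, with lines coloured by genotype and bars showing exact 95% Poisson intervals. Eed, Mtf2, and Jarid2 went down from day 0 in WT. Ezh2 was higher in each null library than in WT at days 4 and 10, but at day 7 it was lower in Mtf2 null cells.

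At day 10, Ezh2 was at 132 UMI CPM in WT, 250.03 in Mtf2 null, 337 in Jarid2 null, and 323 in Eed null cells, which gave ratios to WT of 1.90 (interval 1.60 to 2.26), 2.56 (2.17 to 3.04), and 2.46 (2.06 to 2.93). At day 0 the ratios were 1.03, 1.07, and 1.26, of which only that of Eed null cells had an interval (1.14 to 1.41) above 1. The days between did not form a steady rise. At day 4 the ratios were 1.31, 1.32, and 1.66, each with an interval above 1. At day 7 Mtf2 null cells were below WT (0.726, 0.628 to 0.839), and the ratios of Jarid2 null and Eed null cells were 1.18 and 1.34. The WT level itself went up and down over the days, with 1 library for each. Clusters pooled the days, so ratios within them do not measure the day 10 difference itself. In cluster 4, with 206 of 324 cells from day 10, the ratio of Ezh2 to WT was 1.35 (1.06 to 1.73) in Mtf2 null and 2.01 (1.48 to 2.72) in Jarid2 null cells. In cluster 18, with 103 of 114 cells from day 10, it was 0.826 (0.519 to 1.28) in Mtf2 null cells, on 29 UMIs. Clusters 1 and 14 held mostly day 7 cells. In cluster 1 the ratio was 0.933 (0.718 to 1.23) in Mtf2 null and 1.37 (1.05 to 1.81) in Jarid2 null cells, and in cluster 14 it was 0.83 (0.639 to 1.07) and 1.56 (1.11 to 2.16). The interval was thus above 1 for Jarid2 null cells in clusters 1, 4, and 14, and for Mtf2 null cells in cluster 4 but not in clusters 1, 14, or 18.

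In Eed null cells Aebp2 was 1.39 to 1.51 times WT on the 4 days, with every interval above 1, and Suz12 was 1.41, 1.78, 1.55, and 1.00 times WT. Rbbp4 was lower, at 0.583, 0.706, 0.765, and 0.923. Jarid2 was 0.954 times WT at day 0 and 1.66, 1.46, and 1.54 times on later days. In these cells the scaffold, the methyltransferase, and the PRC2.2 subunits therefore had as many UMI CPM as in WT or more, while Rbbp4 and Mtf2 (0.753, 0.853, 0.956, and 0.806) had fewer or as many.

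In Mtf2 null EBs, Jarid2 was 1.49 times WT at day 0 (1.403 to 1.575) and 1.54 times at day 4 (1.395 to 1.71), then 0.634 at day 7 (0.560 to 0.718) and 1.09 at day 10 (0.945 to 1.26). Suz12 was also above WT at days 0 and 4 and below it at day 7, but stayed below at day 10 (1.32, 1.45, 0.640, and 0.732), and Aebp2 was 1.19, 1.62, 0.879, and 0.823 times WT. The day 0 ratios were above 1 for Jarid2, Aebp2, and Suz12, as in the undifferentiated monolayers of the directed series. Those of Ezh1 (0.8289, 0.615 to 1.12) and Phf19 (0.768, 0.502 to 1.18, with 47 UMIs in each library) were not above 1. In Jarid2 null EBs, Mtf2 was 0.619 times WT at day 0 (0.581 to 0.660) and 1.01, 1.18, and 1.06 times later. Depth per cell at day 0 was 8792 UMIs in WT, 11210 in Mtf2 null, 9527 in Jarid2 null, and 9987 in Eed null cells, and its part in these ratios was not tested.

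Over the 22 clusters given with the data, Eed ranged most, from 1.39 UMI CPM in cluster 9 to 524 in cluster 8, and the lowest values (1.39 to 12.5) were those of clusters 6, 9, 10, and 16, which held mostly Eed null cells. Mtf2 went from 89.1 in cluster 0, of which 334 of 386 cells were Mtf2 null, to 785 in cluster 3, of which 311 of 335 cells were WT. Jarid2 was highest in the same Mtf2 null cluster 0 (808) and lowest in cluster 18 (139), with cluster 8, of which 250 of 265 cells were Jarid2 null, at 151. Ezh2 was lowest in clusters 7 (136) and 18 (144) and highest in clusters 15 (322) and 13 (321), Suz12 lowest in cluster 4 (126) and highest in cluster 10 (487), and Aebp2 (88.9 in cluster 14 to 172 in cluster 10) and Rbbp4 (411 in cluster 10 to 861 in cluster 3) had narrower relative ranges. Ezh1 was highest in clusters 9 (88.7) and 7 (86.2), both mostly of day 4 cells, and lowest in cluster 5 (21.1). The clusters differed in their make-up of genotypes, so a difference between clusters is not separate from genotype.

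**Figure D5:**
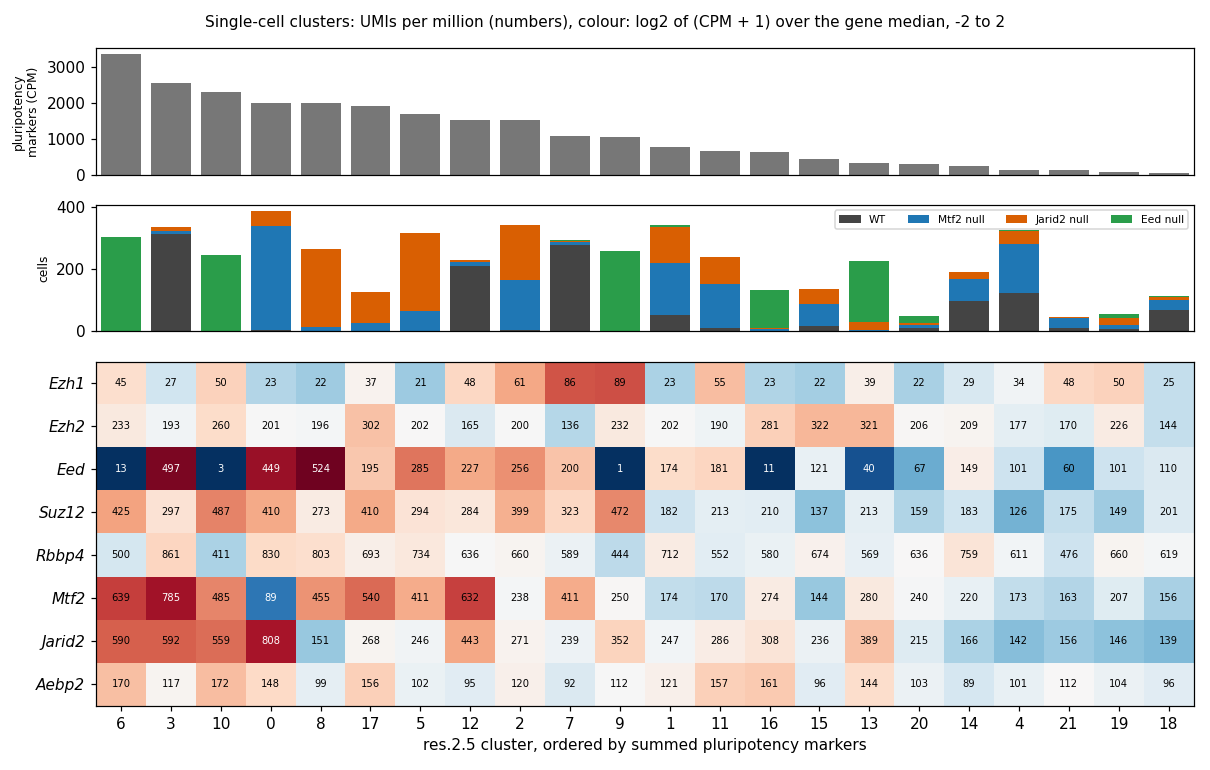
UMI CPM of 8 subunit genes (rows, with Phf1 and Phf19 left out for low counts) in the 22 clusters (columns, ordered by the summed pluripotency markers), below bars of these marker sums and of the number of cells of each genotype. Eed was lowest in the clusters of Eed null cells, and Jarid2 was highest in the day 0 Mtf2 null cluster.

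Within clusters shared by genotypes, the targeted genes stayed low. Mtf2 in Mtf2 null cells was 0.19, 0.231, 0.173, and 0.368 times WT in clusters 1, 4, 14, and 18, and Jarid2 in Jarid2 null cells was 0.464, 0.521, and 0.575 times WT in clusters 1, 4, and 14, with every interval under 1. Rbbp4 in Jarid2 null cells was 0.921 (0.803 to 1.06), 1.37 (1.15 to 1.62), and 1.44 (1.20 to 1.72) times WT in clusters 1, 4, and 14. Jarid2 in Mtf2 null cells was 1.05 (0.855 to 1.30), 0.852 (0.668 to 1.09), and 0.736 (0.554 to 0.970) times WT in these clusters.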

How the data were processed

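RNA was measured in 48 directed monolayer libraries, 24 bulk EB samples, and 16 single-cell plates. The submitters' processing notes name Bowtie2, Salmon, HTSeq, DESeq2, GRCm38, and mm10. The authors deposited estimated counts per gene for the directed series, with 74.9% of the mesoderm values and 73.1% of the endoderm values whole, and the rest were rounded before testing. The bulk EB table deposited by the authors holds a normalized signal, that is, counts divided by a size factor. The value of 1 read was recovered in all 46 columns (tolerance 0.02), and columns of 1 line and day were summed. The single-cell tables deposited by the authors hold UMI counts, with the authors' kept cells and clusters. Plates share all 384 well barcodes by design, so cells were told apart by plate. The authors' filter on cells was used, and no doublet caller was run on the plates.

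The members and gene lists were chosen with earlier results of these data known. The 10 members were named whatever their values. Beside them, 5 other PRC2 genes, and the 2 genes most like Mtf2, Jarid2, and Ezh2 by the lower of 2 correlations (mean of at least 5 CPM) were named, and the gene changed most of each pathway list; 1 gene that this rule names is not reported here. Directed counts were tested in edgeR 4.0.16 (quasi-likelihood, TMM, minimum count 10 and total 15) over all 24 libraries of a series, and undifferentiated cells over both series with series as a term, at a Benjamini-Hochberg adjusted p under 0.001. Bulk EBs were tested in limma 3.58.1 on log2 CPM (prior count 2, at least 1 CPM in 4 samples). An SE for edgeR is the log2 fold change divided by the normal quantile of its p. Alternatives were DESeq2 1.42.0, other size factors, no filter, the replicate block, the compared groups alone, and each library left out. Same-numbered libraries were not paired: of 24 correlations of their deviations, from -0.183 to 0.267, 4 exceeded 0.1. In a simulation of 37690 genes at mesoderm 48 h, 100 genes were changed by 1 and 100 by 2 on the log2 scale. From these, edgeR recovered 51 and 98. In the bulk EB simulation of day 7 on 24967 genes, limma recovered 81 and 100 of 100. Both simulations set the same spread for every gene, left genes with low counts unchanged, and held no difference between lines. The recovered shares are therefore not the power for the members in these data.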

Additional observations from a re-analysis of the deposited data

Results flagged for a closer look

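In the undifferentiated Mtf2 null libraries Phf1 had 1 library apart from the other 3: mesoderm replicate 1 was at 6.16 CPM and the others at 6.95, 6.94, and 6.86 CPM, so that its gap to the nearest was 0.887 of the whole range, above Dixon's critical value for 4 samples. Of 30 such groups tested, chance alone puts about 1 in 20 past it. The genotype difference changed between undifferentiated cells and 48 h for Jarid2 in the mesoderm series (interaction -0.91 on the log2 scale) and for Jarid2 (-0.96), Aebp2 (-0.85), and Mtf2 (1.08) in the endoderm series, each by the edgeR test of the interaction given above. For the mesoderm value and for Jarid2 and Aebp2 in the endoderm series, the undifferentiated Mtf2 null libraries were the highest of the groups compared.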

How the results depend on the processing

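No change turned direction under any alternative run. Counts of members called fell as follows. In the mesoderm series alone 3 of the 6 undifferentiated calls were left. In a fit on the compared groups alone, the mesoderm WT time course had 1 call in place of 10, the endoderm time course 3 in place of 5, the endoderm genotype comparisons 3 in place of 6, and the interaction 0 in place of 1 (mesoderm) and 0 in place of 3 (endoderm). DESeq2 gave 2 calls for the mesoderm interaction and the replicate block 0. With the replicate block the other directed counts were 6 (undifferentiated), 5 and 9 (mesoderm genotype and time), and 6, 6, and 3 (endoderm genotype, time, and interaction), and same-numbered samples are not known to be pairs. Without the line block 0 of 4 bulk EB calls were left, and without the day block 0 of 9. When each library, line, or day was left out in turn, the counts were 6 to 6 (undifferentiated), 4 to 5, 3 to 9, and 0 to 2 (mesoderm genotype, time, and interaction), 3 to 6, 4 to 6, and 1 to 3 (endoderm, in the same order), 0 to 5 (bulk EB WT lines), and 2 to 9 (bulk EB labels). For undifferentiated cells, the close same-numbered library of the other series stayed in each such fit, so the range of 6 to 6 tests little. The causes were not tested. Over single calls of members, 156 of 232 values with a sample left out and 220 of 272 other values stayed past the threshold. Of 210 single-cell ratios, 10 moved beyond their intervals. Leaving out days for the WT lines, and lines for the labels, was not run. Differences in Phf1 and Phf19 rest on few counts, and single-cell values on 1 library each.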
